A study of Mus musculus with 84 samples.

Results

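The carboxylesterase 2 and 3 families of the mouse are a set of closely related serine hydrolases encoded side by side on chromosome 8. The genes Ces2a, Ces2b, Ces2c, Ces2e, Ces2g, Ces3a and Ces3b were taken by matching the gene identifiers of the deposited counts to these symbols. A row was found for 6 of these 7 genes among the 17695 genes of the table, 4 of the Ces2 and 2 of the Ces3 family, and Ces2c was not analysed here. These 6 are Ces2a (ENSMUSG00000055730), Ces2b (ENSMUSG00000050097), Ces2e (ENSMUSG00000031886), Ces2g (ENSMUSG00000031877), Ces3a (ENSMUSG00000069922) and Ces3b (ENSMUSG00000062181). All of them passed the filter on low counts and are among the 10415 genes tested.

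Liver RNA of 84 male B6C3F1 mice, a hybrid laboratory strain, 8 weeks old when the diets began, was measured after 7 days of a control diet (Con0ppm) or of a diet with 1 of 3 organophosphate pesticides (OPPs). Fenthion (FT) was given at 2.5, 5, 10 and 20 ppm, methidathion (MT) at 10, 25, 50 and 100 ppm, and parathion (PT) at 20, 40 and 80 ppm, which correspond to estimated intakes of 0.375 to 3, 1.5 to 15 and 3 to 12 mg/Kg-bw/day. The 12 groups had 7 mice each, drawn from the experimental blocks 1, 3 and 4 as 2, 3 and 2 animals. Transcripts were read with TempO-Seq: paired detector oligos that meet on their target transcript are ligated, amplified and sequenced. RNA was isolated by Expression Analysis Genomic Services (EA) or by the U.S. EPA, with EPA handling 7 mice in all, of which 2 were control mice, 2 had FT at 20 ppm, 2 MT at 100 ppm and 1 MT at 10 ppm. The mice were of 1 sex, lived 4 to a cage, and gave portions of 3 liver lobes, and no comparison here takes account of the cage.

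Carboxylesterases sit in the endoplasmic reticulum of hepatocytes and other cells and cleave esters, amides and thioesters of drugs, pesticides and lipids through a serine that takes up the acyl group of the substrate. Organophosphates act on the same kind of serine: their oxon metabolites phosphorylate acetylcholinesterase in the nervous system and carboxylesterases in liver and blood, and a phosphorylated carboxylesterase no longer cleaves its substrates. Ces2 enzymes also hydrolyse acylglycerols in liver and intestine, and several Ces2 genes respond to the xenobiotic receptors CAR and PXR.

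The stretch around the catalytic serine shows how alike the members are. On mm39, all 7 genes lie on the plus strand, Ces2a at chr8:105460630-105468266, Ces2b at chr8:105558204-105566725, Ces2c at chr8:105573700-105581115, Ces2e at chr8:105652848-105661304, Ces2g at chr8:105688346-105696169, Ces3a at chr8:105775223-105789243 and Ces3b at chr8:105810253-105820561. The exonic coding sequence of 45 bases around the serine codon, read from this assembly with the GENCODE gene models, is given 5′ to 3′ with that codon in capitals.
Ces2a: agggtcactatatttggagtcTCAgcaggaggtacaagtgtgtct
Ces2b: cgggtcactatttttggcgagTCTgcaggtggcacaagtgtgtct
Ces2c: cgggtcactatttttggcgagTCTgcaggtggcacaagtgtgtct
Ces2e: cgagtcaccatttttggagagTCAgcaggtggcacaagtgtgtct
Ces2g: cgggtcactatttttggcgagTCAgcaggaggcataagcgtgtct
Ces3a: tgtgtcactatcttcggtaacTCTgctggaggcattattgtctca
Ces3b: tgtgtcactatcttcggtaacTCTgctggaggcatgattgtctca
Ces2b and Ces2c had the same 45 bases, Ces3a and Ces3b differed at 1 of them, and Ces2a differed from each other Ces2 member at 8. A Ces2 and a Ces3 member differed at 14 to 16 bases. Over the whole coding sequence, the Ces2 members shared 81.6% to 92.1% of their aligned bases, Ces3a and Ces3b 95.3%, and a Ces2 and a Ces3 member 66% to 68.4%.

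Such likeness bears on the counts, since the authors' counting can split a read between genes. Of all 50-base windows of their transcripts, 8.97% in Ces2a, 7.02% in Ces2b, 3.07% in Ces2e and 2.09% in Ces2g also occurred in another measured gene, most often in Gm7208 for Ces2a and Ces2e, Ces2d-ps for Ces2b and Ces2f for Ces2g. In Ces3a and Ces3b it was 11.9% and 16.68%, in each case within the other of the pair. Reads come only from the sites of the detector oligos, and which windows these sites cover was not examined. Counts more than 1e-06 from a whole number can mark split reads. They were found in 82 of 84 mice for Ces2a, 76 for Ces3b, 66 for Ces3a, 45 for Ces2g, 35 for Ces2b and 1 for Ces2e. Such departures can be minute, since every Ces2g count was whole to 1 decimal, and the share of reads that was split was not measured. How far the shared windows make the division of reads between Ces3a and Ces3b uncertain is therefore not known, while Ces2e departed from a whole number in 1 mouse only.

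The total count per mouse ranged from 6950381 to 15300589, so that 3 counts correspond to 0.196 to 0.432 CPM, the count scaled to the total of the mouse. The smallest count of any member in any mouse was 50, for Ces2b. Of 8 hepatocyte markers such as Alb and Apoa1, all were measured, and their summed level lay between 16483 and 39403 CPM. The cholangiocyte markers summed to 0.169 to 13.7 CPM, with Epcam at a median count of 0 over the 84 mice. The 7 measured pancreas and intestine markers summed to 65.5 to 1973 CPM, nearly all of it Fabp2, an intestinal fatty acid binding protein, at a median of 665 CPM in control, 1255 at FT 10 ppm and 665.2 at PT 80 ppm. Of the others, Cpa1, Pnlip, Prss2 and Lgals4 had a median count of 0 over the 84 mice. In control, FT 10 ppm and PT 80 ppm, the intestine marker Vil1 reached at most 0.231 CPM and Cela2a at most 6.71.

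In the control liver, the level of Ces3b was 1129 ± 243 CPM (SD, n = 7), that of Ces2e 366.3 ± 107.2, Ces2a 141.6 ± 26.8, Ces3a 123.6 ± 41.6, Ces2g 24.8 ± 2.23 and Ces2b 16.7 ± 9.39. These levels depend on the probes for each gene as well as on its transcripts, and are compared between groups and not between genes. The control mice varied least in Ces2g, with an SD of 8.96% of the mean, and most in Ces2b, with 56.2%. For Ces2b, Ces2e, Ces2g, Ces3a and Ces3b, the lowest group mean of all 12 groups was that of PT 80 ppm, and for Ces2a the highest was.

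**Figure D1:**
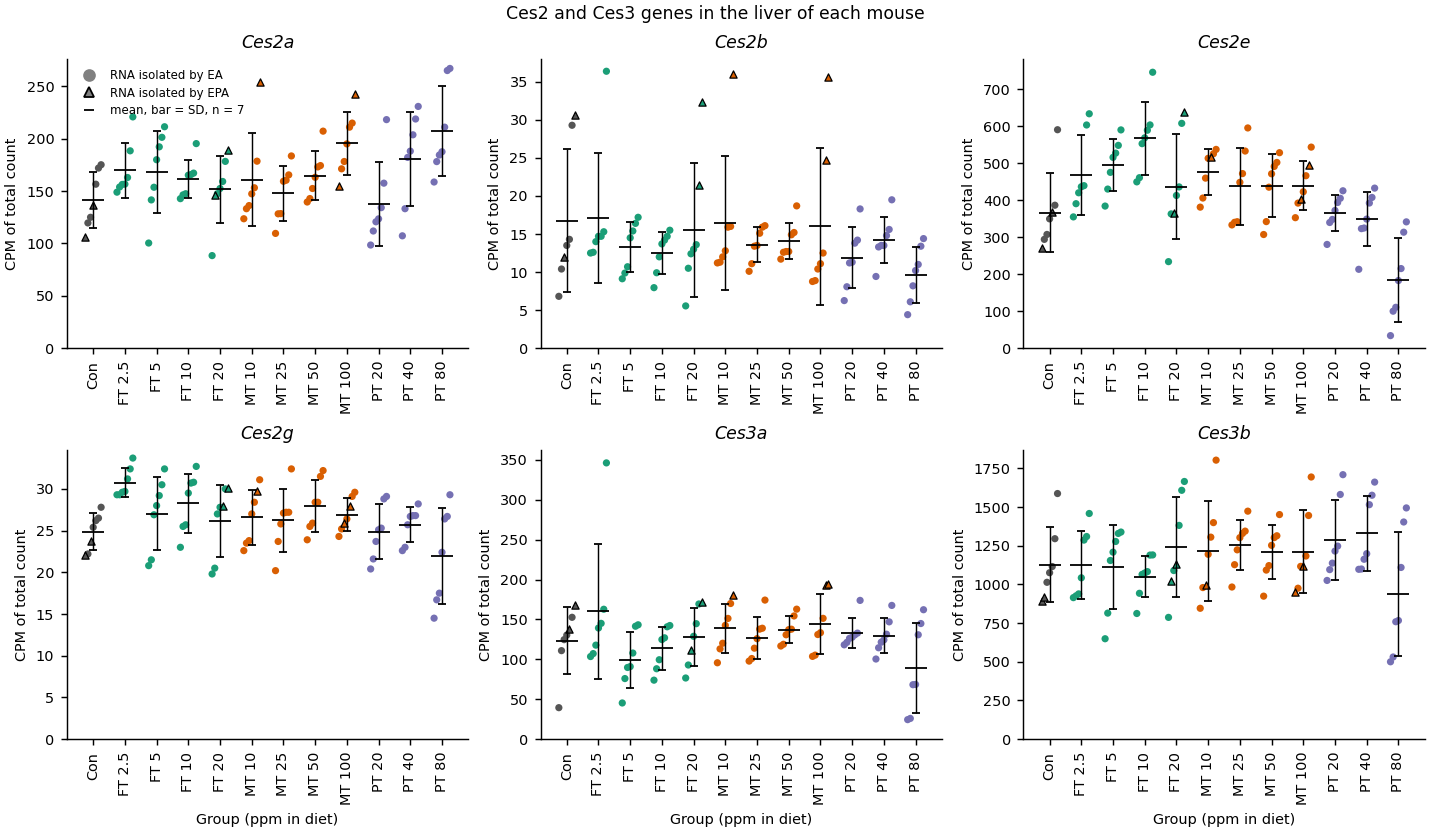
Level of each measured member in the liver of every mouse (vertical axes in CPM of the total count, horizontal axes with the 12 diet groups in ppm). Points are single mice, circles for RNA isolated by EA and triangles by EPA, and the bars give the mean and SD of 7 mice. In the Ces2e panel all 7 mice at PT 80 ppm lay below the control median of 349.3 CPM, while in the Ces2a panel all 7 lay above the control median of 136.6 CPM.

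At PT 80 ppm, Ces2a rose and Ces2e and Ces3b fell against control, and the other 3 members did not pass the test. The call on 3 of 6 members stands beside 1939 of 10415 genes, or 18.6%, called in the same comparison. The median log2 fold change of the 6 members was -0.47, that of all genes tested 0.01. Genes were called at an adjusted p below 0.05 by the quasi-likelihood test of edgeR, which took account of block and RNA isolator, with Benjamini-Hochberg adjustment over all 10415 genes, and all log2 fold changes below are from that test unless another is named. In pieces of whole liver, fewer cells of a type and less RNA per cell cannot be told apart.

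Ces2e had the largest change of the 6 measured members. Its level in the control mice was 269.3 CPM at the lowest, 349.3 at the median and 590.2 at the highest. At PT 80 ppm the lowest mouse held 33.8 CPM, the median mouse 182.6 and the highest 341.2. All 7 PT mice were below the control median and 5 of them below the lowest control mouse. The log2 fold change was -1.14 (SE 0.206, 95% interval -1.55 to -0.73), which is 0.453 of the control level, with an adjusted p of 2.71e-05. At PT 20 and 40 ppm the mean was 366.2 ± 48.7 and 348.7 ± 73 CPM, against 366.3 in control, and the log2 fold changes of 0.01 and -0.11 did not pass the test. Ces2e was the only measured member with a change of at least 2-fold in any fitted comparison of diets.

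Ces2a, described as a hydrolase of acylglycerols, moved the other way. Its control mice held 106.4 CPM at the lowest, 136.6 at the median and 175.2 at the highest. At PT 80 ppm the lowest, median and highest mouse held 158.7, 187.6 and 267.2 CPM. All 7 were above the control median and 6 above the highest control mouse, so that the groups overlapped only through 1 PT mouse. The log2 fold change was 0.49 (SE 0.127, 95% interval 0.23 to 0.74; adjusted p = 0.0038). At PT 40 ppm it was 0.35, with 5 of 7 mice above the highest control and an adjusted p of 0.437, and at PT 20 ppm -0.00. The control mean of 141.6 CPM was below that of every dosed group except PT 20 ppm (137.8). In EA mice only the control mean was 149.7. At FT 2.5 and 5 ppm the log2 fold change was 0.27 each (adjusted p = 0.425 and 0.605), and at 5 ppm 4 of 7 mice were above the highest control.

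A window before the start site was read for 5 of the 7 genes from RefSeq on GRCm38.p6, another build than that of the coordinates above. The windows of Ces2a, at chr8:104733853-104734002, and Ces2e, at chr8:104926110-104926259, are shown because these genes moved in opposite directions. They give the 150 bases before the start on the plus strand, and capitals mark the letters GGGCAAAG on the opposite strand, a motif chosen after the sequences were seen.
Ces2a: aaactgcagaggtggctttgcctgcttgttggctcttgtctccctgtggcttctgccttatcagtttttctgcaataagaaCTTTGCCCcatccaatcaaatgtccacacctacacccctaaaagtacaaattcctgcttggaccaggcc
Ces2e: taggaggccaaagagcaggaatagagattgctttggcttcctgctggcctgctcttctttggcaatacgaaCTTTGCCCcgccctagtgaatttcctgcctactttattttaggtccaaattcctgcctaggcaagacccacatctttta
The motif began 69 bases before the start in Ces2a, 79 in Ces2e and 116 in Ces2g, and was found in 3 of the 5 windows from 250 bases before to 50 after the start. Of all 32851 such windows 1.66% held it on either strand, but the Ces2 genes share sequence by descent and are not separate draws. The nuclear receptor core motif AGGTCA was found in 1 of the 5, that of Ces2a, and in 16.3% of all windows, on either strand.

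Ces3b and Ces3a form a pair of near-identical genes. Ces3b ranged from 896.1 CPM over a median of 1076 to 1588 in the control mice, and from 499.9 over 766.8 to 1495 at PT 80 ppm. At the high dose 4 mice lay below the lowest control and 3 above the control median, so that the group reached to both sides of the control median. The log2 fold change of -0.48 (SE 0.164) passed the test with an adjusted p of 0.0301. For Ces3a the control mice reached from 39.4 over 130.4 to 168.6 CPM and the PT 80 ppm mice from 24.4 over 68.5 to 162.2. The log2 fold change of Ces3a was -0.47 (SE 0.248), close to that of Ces3b, but the adjusted p was 0.193. The ratio of Ces3a to Ces3b within a mouse was 0.115 ± 0.0512 in control and 0.087 ± 0.0298 at PT 80 ppm, with every PT 80 ppm mouse inside the control range of 0.0366 to 0.184.

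Ces2b and Ces2g had the lowest counts of the measured members. Ces2b lay between 6.81 and 30.7 CPM in the control mice, with a median of 13.5, and between 4.4 and 14.4, with a median of 10.2, at PT 80 ppm. Ces2g lay between 22.1 and 27.8 CPM, with a median of 25.4, in the control mice and between 14.5 and 29.3, with a median of 22.4, at PT 80 ppm. The groups overlapped for both genes. The log2 fold changes were -0.54 (SE 0.227, adjusted p = 0.0845) for Ces2b and -0.28 (SE 0.111, adjusted p = 0.064) for Ces2g.

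The call on Ces3b at PT 80 ppm was lost when 1 of 6 mice was left out, the control mice 340066 (adjusted p = 0.0784) and 340070 (0.107) or the PT mice 340055 (0.153), 340056 (0.0798), 340059 (0.0965) and 340061 (0.0532), while Ces2a and Ces2e were called in all 14 such fits. With only control and PT mice in the fit, Ces2e alone remained called (adjusted p = 0.00705), and Ces2a (0.0999) and Ces3b (0.143) were not. With EA mice only, Ces2b (0.0241) and Ces2g (0.0453) were called besides the 3. Without block and isolator in the model, Ces2b was called at -0.85 (adjusted p = 0.0268) and Ces3b was not (-0.34, 0.216).

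The 14 mice at PT 20 and 40 ppm allow the high dose to be set against mice that the comparisons with control do not share. In this comparison all 6 measured members passed the test, Ces2a higher and the other 5 lower at 80 ppm, beside 25.7% of all genes called. Ces2e again had the largest change, -1.09 (SE 0.182, adjusted p = 4.29e-06), and 4 of its 7 mice lay below the lowest of the 14, at 213 CPM. The changes were -0.66 for Ces3a (adjusted p = 0.0176), -0.58 for Ces3b (0.00128), -0.54 for Ces2b (0.0341), -0.30 for Ces2g (0.0151) and 0.31 for Ces2a (0.0236). For Ces3a, Ces3b and Ces2e, 4 of 7 high-dose mice were below all 14 lower-dose mice, while 2 Ces2a mice were above all 14.

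Without mouse 340055 only Ces2e and Ces3b passed in that comparison (Ces2a 0.0695, Ces2b 0.0581, Ces2g 0.0989, Ces3a 0.106), and the same held without mouse 340059 (Ces2a 0.112, Ces2b 0.126, Ces2g 0.0903, Ces3a 0.0771). Without 340056, Ces2b (0.0903) and Ces2g (0.0541) were lost, and without 340061, Ces2b (0.0626). With only control and PT mice in the fit, Ces2e and Ces3b were called. Without block and isolator 4 members passed (Ces2a 0.0536 and Ces2b 0.13 did not), with limma on log2(CPM + 1) also 4 (Ces2b 0.0728 and Ces2g 0.0514 did not), and without the filter on low counts 5 (Ces2b 0.0607 did not), so that Ces2b depended most on the settings.

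**Figure D2:**
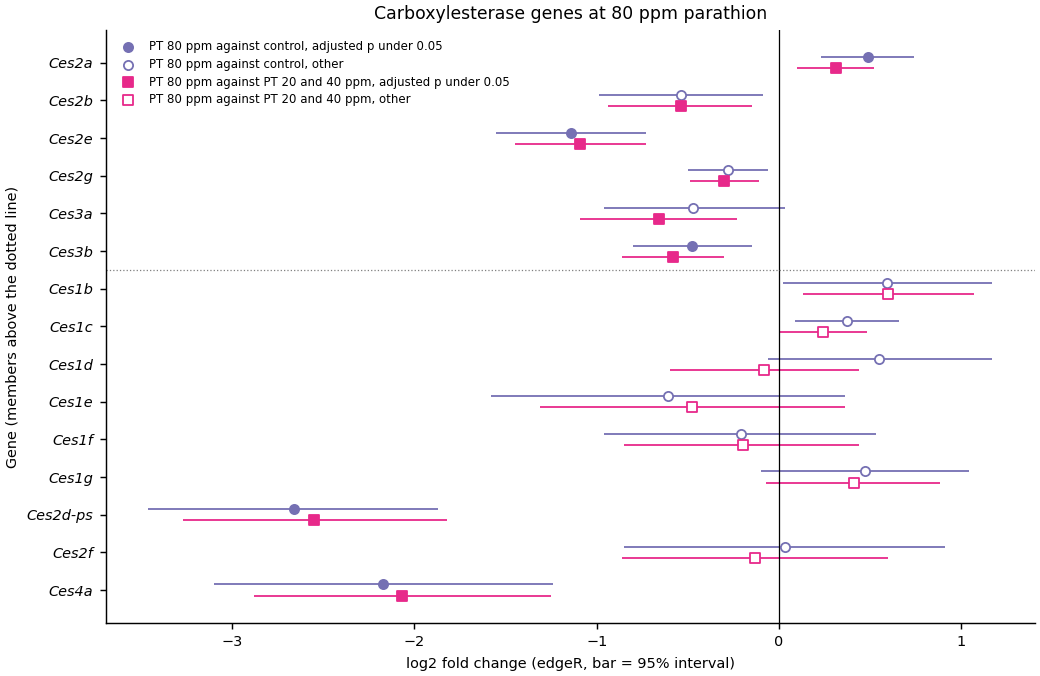
Log2 fold change at PT 80 ppm against control (circles) and against PT 20 and 40 ppm (squares) for the measured members, above the dotted line, and the other tested carboxylesterases. Bars are 95% intervals of edgeR and filled symbols have an adjusted p under 0.05. Ces2a lies right of 0 and Ces2e at -1.14 and -1.09, with Ces2d-ps and Ces4a further left.

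A straight line in ppm through control and the 3 PT doses gave the same signs, but it draws on the same PT 80 ppm mice. Of the members, 4 passed, beside 23% of all genes: Ces2e fell by 1.19 on the log2 scale from control to 80 ppm along the fitted line (adjusted p = 4.84e-06), Ces3b by 0.51 (0.0122) and Ces2g by 0.29 (0.0379), and Ces2a rose by 0.54 (4.16e-04). Ces2b (-0.51, adjusted p = 0.0845) and Ces3a (-0.54, 0.0928) did not pass. Ces3b differed from control by 0.09 and 0.11 at PT 20 and 40 ppm, and Ces2g by 0.01 and 0.02. The fall of these 2 genes was thus seen at 80 ppm only. With the order of the doses in place of ppm, Ces2g no longer passed (0.0873). With the dosed groups only, Ces3a passed too (-0.73, adjusted p = 0.0197).

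The mice at PT 80 ppm differed widely among themselves, and the same mice were low in several members. Mouse 340055 of block 1 and mouse 340059 of block 3 held the lowest 2 levels of Ces2g, Ces3a and Ces3b and the highest 2 of Ces2a. Relative to the control mean, mouse 340055 stood at 0.0924 for Ces2e, 0.21 for Ces3a, 0.47 for Ces3b and 1.87 for Ces2a. Mouse 340059 stood at 0.301, 0.197, 0.443 and 1.89 for these genes, and at 0.263 for Ces2b. Both mice of block 4 lay at or above the control mean for Ces2g (1.18 and 1.08), Ces3a (1.06 and 1.31) and Ces3b (1.24 and 1.32), but below it for Ces2e (0.587 and 0.855) and Ces2b (0.658 and 0.859).

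Within the blocks, with 2 or 3 mice on either side and no test, the mean log2 difference of Ces2e from control was -2.65 in block 1, -0.81 in block 3 and -0.81 in block 4. For Ces2a it was 0.31, 0.62 and 0.41 and for Ces2b -0.18, -0.88 and -1.21, so that these 3 genes kept their sign in every block. In block 4, however, every dosed group lay below control in Ces2b, from -0.41 at FT 2.5 ppm to -1.51 at PT 20 ppm. The within-block differences do not take account of the RNA isolator. Ces3b differed by -1.13 in block 1 and -0.63 in block 3 and by 0.55 in block 4, where the sign was turned. Ces3a differed by -0.85, -1.24 and 0.04 and Ces2g by -0.62, -0.42 and 0.22.

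**Figure D3:**
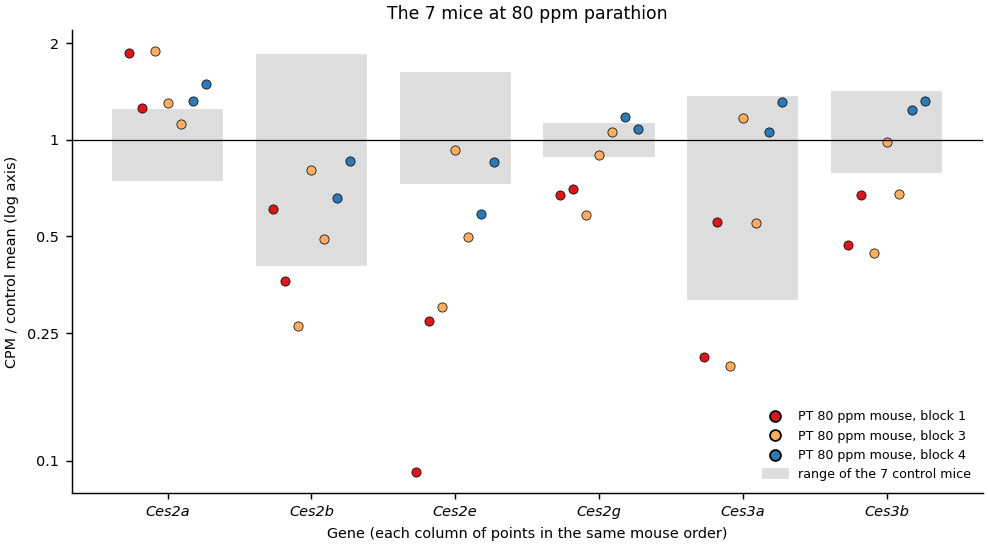
Each of the 7 mice at PT 80 ppm as a ratio to the control mean, on a log axis, for the 6 measured members (horizontal axis). Points are coloured by block and stand in the same mouse order in every column, and grey boxes span the 7 control mice. The 2 mice of block 4 lie at 1.24 and 1.32 for Ces3b, while Ces2e of the lowest mouse, in block 1, lies at 0.0924.

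Mouse 340055 also stood apart in genes outside the family. Its Kupffer cell and leukocyte markers summed to 17.8 CPM, against 57.5 to 117.3 in the other 6 PT 80 ppm mice and 89.2 to 179.5 in control. Its pancreas and intestine markers, mostly Fabp2, summed to 65.5 CPM, against 552.1 to 1129 in the other 6 and 452.1 to 1229 in control. Por, the electron donor of cytochrome P450 enzymes, reached 956.4 CPM in it and 802.4 in mouse 340056, the other mouse of block 1, while the control mice held 21.9 to 78.4. Their part in the result was not tested. Without mouse 340055, Ces2e still differed from control by -0.94 on the log2 scale (adjusted p = 8.91e-05).

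The ratio of Ces2a to Ces2e within a mouse does not depend on depth. The pair was chosen because the 2 genes moved apart at PT 80 ppm, so that its values there restate that contrast as a description and add no support to it. The ratio of Ces2a to Ces2e counts ranged from 0.291 over a median of 0.395 to 0.57 in control, and from 0.541 over 0.872 to 7.84 at PT 80 ppm. At the high dose 6 of 7 mice were above the highest control mouse, and at PT 40 ppm, with a mean of 0.521 ± 0.0985, 2 of 7. In all FT and MT groups and at PT 20 ppm no mouse was above the highest control. The lowest group was FT 10 ppm, at 0.291 ± 0.0502, where 4 of 7 mice were below the lowest control.

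**Figure D4:**
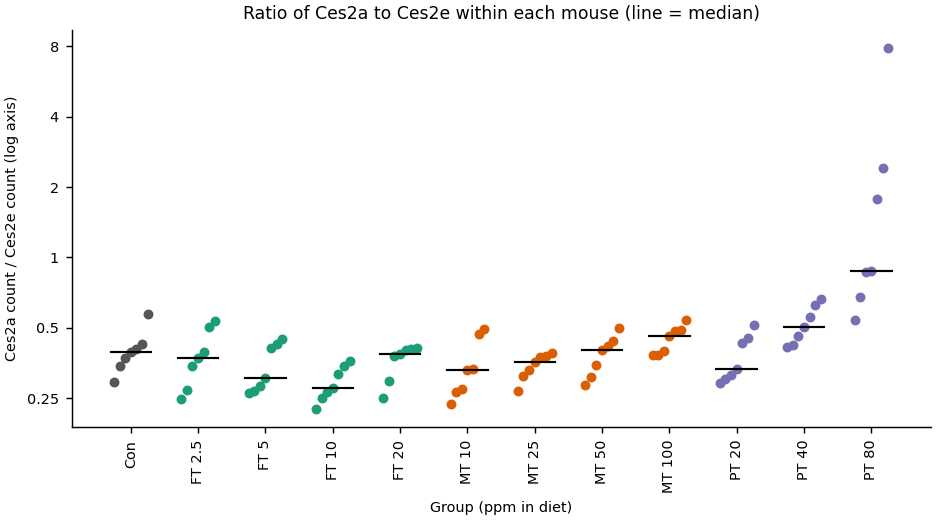
Ratio of the Ces2a count to the Ces2e count in each of the 84 mice, on a log axis, by diet group in ppm. Points are mice and lines are group medians. The PT 80 ppm mice reach from 0.541 to 7.84, and 6 of them lie above every control mouse.

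As family sums, the 4 Ces2 members together held 549.5 ± 131.3 CPM in control and 424.2 ± 105.6 at PT 80 ppm, and the 2 Ces3 members 1252 ± 239 and 1027 ± 457.7. A sum follows the member with the most counts, here Ces2e and Ces3b. Ces2e made up 66.1% ± 3.75 of the Ces2 sum in control and 40.7% ± 17.7 at PT 80 ppm, down to 10.4% in 1 mouse. Without Ces2e, the Ces2 sum was 183.2 ± 29.5 CPM in control and 239.1 ± 39.1 at PT 80 ppm. The Ces2 sum thus joined a lower Ces2e with a higher Ces2a. The highest Ces2 sum was that of FT 10 ppm, 769.2 ± 108.1 CPM, and the highest Ces3 sum that of PT 40 ppm, 1460 ± 252.7.

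With FT, no member was called at any dose by edgeR, and 2, 2, 1 and 0 of the 6 had an unadjusted p under 0.05 at 2.5, 5, 10 and 20 ppm. DESeq2 called only Ces2e, at 10 ppm. The share of all genes called by edgeR was 0.0096% at 2.5 ppm, 0% at 5 ppm (790 genes at an unadjusted p under 0.05, 4 called by DESeq2), 1.57% at 10 ppm and 0% at 20 ppm (415 genes, 0 by DESeq2). At FT 10 ppm, Ces2e ranged from 449.3 over 568.3 to 745.5 CPM, with all 7 mice above the control median and 2 above the highest control mouse, 340073, which stood well above the other 6. The log2 fold change was 0.62 (SE 0.204, 95% interval 0.22 to 1.03), the adjusted p 0.0863, and with DESeq2 0.0436. Under the other settings on the counts it lay between 0.0517 (no block and isolator) and 0.227 (EA mice only). Ces2e at FT 2.5, 5 and 20 ppm had log2 fold changes of 0.32, 0.41 and 0.21.

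Ces2g at FT 2.5 ppm lay between 29.3 and 33.7 CPM, with the highest control mouse at 27.8. How many of all genes part from control in this way was not counted, so no weight is put on it. The difference was small, 0.28 on the log2 scale (SE 0.11), and did not pass over all genes (adjusted p = 0.319). At FT 20 ppm Ces2g was at 26.1 ± 4.24 CPM. In the trend over the FT doses and in the highest against the lower doses edgeR called no member and 0% of genes, with 451 and 765 genes and 0 and 1 members at an unadjusted p under 0.05. That member was Ces3b, 0.27 higher at FT 20 ppm than at the lower doses.

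With MT, edgeR called no member either. The share of all genes called was 0% at 10 and 25 ppm (1038 and 603 genes at an unadjusted p under 0.05, 0 called by DESeq2 at both), 0.0096% at 50 ppm and 0.0768% at 100 ppm. The number of members with an unadjusted p under 0.05 was 0 at the lower 3 doses and 1 at 100 ppm. That gene was Ces2a, which ranged from 155 over 195.1 to 242.7 CPM at MT 100 ppm. All 7 mice were above the control median and 5 above the highest control mouse. The log2 fold change of 0.47 (SE 0.125, 95% interval 0.22 to 0.72) stood beside 0.49 at PT 80 ppm, a difference that was not tested. It had an adjusted p of 0.0795, with DESeq2 of 0.0261, with only control and MT mice in the fit of 0.0368, and with RLE scaling of 0.0779. Without the filter it was 0.133, with limma on log2(CPM + 1) 0.142, without block and isolator 0.255 and with EA mice only 0.298. Within blocks it was 0.27, 0.81 and 0.16.

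Ces2a had a trend of 0.42 over the MT doses (adjusted p = 0.111, with 0.0672% of genes called) and differed by 0.31 between MT 100 ppm and the lower doses (adjusted p = 0.31, with 0.0288% called). The other 5 members differed from control by -0.18 (Ces2b) to 0.27 (Ces2e) at MT 100 ppm. At PT 20 and 40 ppm neither edgeR nor DESeq2 called a member, beside 0.0096% and 0% of genes in edgeR (615 and 886 genes at an unadjusted p under 0.05, 0 and 1 called by DESeq2), and Ces2a at 40 ppm was the only member with an unadjusted p under 0.05. All comparisons with control share the same 7 control mice.

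The 3 OPPs can be compared at equal dose in 2 pairs of groups. Fenthion and parathion are phosphorothioates, with dimethyl esters in the former and diethyl esters in the latter, and methidathion is a dimethyl phosphorodithioate. Between FT and MT at 10 ppm, edgeR called 0% of genes and no member, with 798 genes at an unadjusted p under 0.05. The largest member differences were 0.27 for Ces2e (95% interval -0.13 to 0.67, adjusted p = 0.768) and -0.23 for Ces3b (-0.54 to 0.09, 0.76). Between FT and PT at 20 ppm, edgeR again called 0% of genes and no member, with 354 genes at an unadjusted p under 0.05, and the largest differences were 0.21 for Ces2e (-0.20 to 0.62, 0.999) and -0.21 for Ces3a (-0.70 to 0.28, 0.999). None of the 6 members had an unadjusted p under 0.05 in either pair, and intervals this wide do not show that the compounds act alike. MT 100 and PT 80 ppm, where Ces2a had its highest group means, have no equal dose among the other OPPs.

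Between the sites of RNA isolation 2 members differed, beside 38.7% of all genes. Ces2b was higher in the 7 EPA mice by 1.01 on the log2 scale (SE 0.171, adjusted p = 2.08e-06), at 27.6 ± 8.74 CPM against 12.4 ± 4.66 in the 21 EA mice of the same groups. The EPA mice ranged from 12 to 36 CPM, and 2 of the 7 control mice are among them, so that the control mean of Ces2b was 16.7 with them and 14.9 ± 8.57 (n = 5) without. In EA mice only, Ces2b fell by 0.73 at PT 80 ppm with an adjusted p of 0.0241. Ces3b was lower in the EPA mice by 0.47 (adjusted p = 0.00384), at 1004 ± 93.1 against 1265 ± 289.8 CPM.

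Between the 3 experimental blocks, Ces2a, Ces2e and Ces3b differed, with adjusted p of 0.00335, 0.00701 and 0.0175 in edgeR, beside 39.9% of genes called. Ces2a averaged 187.2 ± 34.7 CPM in the 24 mice of block 1, 158.4 ± 39.7 in the 36 of block 3 and 155.1 ± 28.2 in the 24 of block 4. Ces2e averaged 372.5 ± 117.7, 432.5 ± 139.5 and 444.6 ± 105.6 CPM, lowest where Ces2a was highest. Ces3b averaged 1286 ± 298.7, 1058 ± 236.3 and 1242 ± 206.4. Every group held the same number of mice of each block.

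Among the other carboxylesterases, 12 of 13 had a row and 9 were tested. At PT 80 ppm 2 of the 9 were called, both lower, which is 22.2% and close to the 18.6% of all genes called. The median log2 fold change of the 9 was 0.03. Ces2d-ps, a pseudogene inside the cluster, fell by 2.66 (SE 0.398, adjusted p = 6.93e-07), from 33.8 ± 11.3 to 6.11 ± 6.94 CPM, and 55.69% of its transcript windows also occur in other measured genes. Of the 2465 windows of Ces2c, the member without a row, 734 also occur in Ces2d-ps. Whether reads of Ces2c were counted under Ces2d-ps was not tested. Ces4a, a neighbour of Ces3b, fell by 2.17 (SE 0.466, adjusted p = 3.95e-04), from 3.85 ± 0.747 to 1.08 ± 0.946 CPM. The Ces1 genes lie in another cluster of the same chromosome, and none of the 6 tested passed against control.

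Ces1c, a carboxylesterase secreted into plasma, held 5256 ± 1299 CPM in control and 7620 ± 2252 at PT 80 ppm, a log2 fold change of 0.37 with an adjusted p of 0.0561. Ces1d, a hydrolase of stored triacylglycerol, differed by 0.55, Ces1g by 0.47, Ces1b by 0.59, Ces1e by -0.61, Ces1f by -0.21 and Ces2f by 0.03. In the PT trend, Ces1b (0.73, adjusted p = 0.039) and Ces1c (0.40, 0.024) rose. Ces1a, Ces1h and Ces2h were at 0.251 CPM or less in control and were not tested, and Ces5a was not analysed here.

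Along the chromosome, the nearest tested genes outside the cluster did not pass at PT 80 ppm, save Ces4a. To the left of Ces2a, Nae1, which activates NEDD8, differed by 0.09 and Pdp2, a pyruvate dehydrogenase phosphatase subunit, by -0.21. To the right, Cbfb, a partner of RUNX factors, differed by 0.04, and none of these 3 passed the test. Inside the cluster, Gm8798 fell by 2.77 (adjusted p = 8.43e-07), and 852 of the 895 shared windows of Ces2d-ps lie in it, so that these 2 cannot be taken as separate measurements. Ces2e lies between them and Ces2f, which did not pass.

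**Figure D5:**
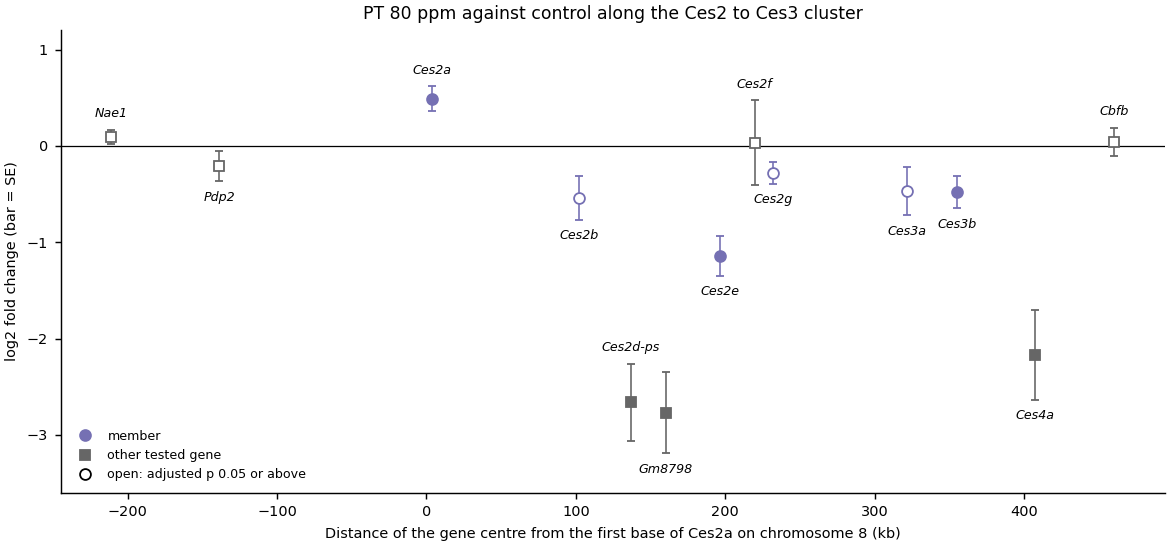
Log2 fold change at PT 80 ppm against control (vertical axis, bars are SE) along the cluster on chromosome 8, by distance of the gene centre from the first base of Ces2a in kb. Purple circles are members, grey squares other tested genes, and open symbols have an adjusted p of 0.05 or above. Ces2a lies above 0 at the left end, while Ces2d-ps and Gm8798 lie below -2.5 in the middle.

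The genes that act beside the family moved in both directions at PT 80 ppm. Of 16 lipid and arylacetamide hydrolases tested, 2 rose and 3 fell, or 31.2%, beside 18.6% of all genes, with a median log2 fold change of 0.01. The triacylglycerol lipase Pnpla2 rose by 0.79, while its coactivator Abhd5 fell by 0.75, the related Pnpla3 by 2.47 and the lysophospholipase Pnpla7 by 0.69. Of 12 nuclear receptors and partners tested, 3 rose and none fell, among them the receptor CAR (Nr1i3) by 1.78, PXR (Nr1i2) by 0.52 and Hnf4a by 0.53, with a median of 0.22.

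Of 12 CAR and PXR target genes, 9 were tested. At PT 80 ppm 6 of the 9 were called higher and none lower, beside 18.6% of all genes called, with a median of 1.12. Por rose by 2.33, the exporter Abcc3 by 1.87 and the cytochrome P450 enzymes Cyp2c29 by 1.39 and Cyp3a11 by 1.12. At MT 100 ppm, Cyp2c29 rose by 2.54, Cyp2c55 by 2.77 and Cyp3a11 by 1.29, the 3 of the 9 that passed, beside 0.0768% of all genes. Ces2a stood at 0.47 there and was not called by edgeR. At FT 10 ppm the same 3 of 9 passed, at 0.87, 1.33 and 0.99, beside 1.57% of all genes. Ces2a at 0.22 and Ces2e at 0.62 were not called there by edgeR. Whether the members are linked to these target genes was not tested.

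Some markers of cell types passed the test at PT 80 ppm, where 18.6% of all genes were called. Of 8 hepatocyte markers, Tat (1.57), Cps1 (0.88) and Hnf4a (0.53) passed as higher, but 3 of the 8 lay below 0 and the median was 0.13. The sum of all 8 was 22917 to 39403 CPM against 18938 to 38718 in control. Of 5 tested Kupffer cell and leukocyte markers, Cd5l (-0.87), Clec4f (-0.80) and Ptprc (-0.54) passed as lower. All 5 lay below 0, with a median of -0.65, and the sum of the measured markers was 17.8 to 117.3 CPM against 89.2 to 179.5. Of 6 endothelial and stellate cell markers, only Dcn passed, at 0.36, while 3 of the 6 lay below 0 and the median was -0.05. Their sums were 144.8 to 216.1 against 136.4 to 194.4 CPM. The 1 tested pancreas and intestine marker was not called, and no cholangiocyte marker was tested. Whether these shifts bear on the members was not tested.

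Across the 84 mice, with block and isolator subtracted, the genes most like each member in log2 CPM were found by Pearson correlation, which is given as a description, since all values come from the same libraries and the PT 80 ppm mice weigh on many of them. Ces2a was most like the bile acid transporter Slc10a1 (r = 0.76, and 0.737 over the 77 mice without PT 80 ppm) and Ugp2, an enzyme of UDP-glucose synthesis (0.734 and 0.765). Ces2e was most like Slc22a28 (0.891 and 0.599), of a family of organic anion transporters, and Lgals9 (0.89 and 0.689), a galectin. Ces3a and Ces2b both had the glucuronosyltransferase Ugt2b1 first, at 0.843 and 0.708, and Ces2b next the adiponectin receptor Adipor2 at 0.658. Ces3b was most like Ugt2b38 (0.836 and 0.68) and the interferon-induced Irgm2 (0.766), Ces2g like Slc17a4 (0.726) and Fcf1 (0.721), and Ces3a second like Ifi203 (0.811).

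Among the members themselves, Ces2e and Ces2g had the highest correlation, 0.671, followed by Ces3a and Ces3b at 0.644. The correlations that joined Ces2e to the Ces3 genes rested on the high dose: Ces2e and Ces3b stood at 0.495 over all mice and -0.151 without PT 80 ppm, Ces2e and Ces3a at 0.511 and -0.159. Ces2a and Ces2e, which parted at PT 80 ppm, stood at -0.0114 over all mice and 0.516 over the other 77.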

How the data were processed

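Liver RNA of 84 mice was measured by TempO-Seq. Reads were aligned by the authors with STAR to mm39 and quantified per Ensembl gene with Partek E/M, and the estimated counts were deposited as they are. A second deposited table holds values on a log2 scale after correction for block and isolator, treated here as a score. In these deposited score values, mice of a group that share block and isolator (43 sets) average the same as their whole group to within 5e-05. The spread within groups was thus reduced, and tests on these values are not independent of the correction. Groups still differ in them, but not always as in the counts. At FT 10 ppm, for instance, Ces2e stood at -0.06 and Ces2b at -1.40 against control, where edgeR gave 0.62 and -0.06.

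The estimated counts were rounded, genes with a median over 8 counts were kept (10415), and edgeR 4.0.16 (quasi-likelihood, TMM) in R 4.3.3 was fitted to all 84 mice, grouped by their labels, with group, block and isolator. P-values were adjusted by Benjamini-Hochberg over all genes of a comparison. Levels are CPM of the total count. The limit of 3 counts covers counting error only, since reads without molecular identifiers are not independent molecules. Alternatives were DESeq2 1.42.0, limma 3.58.1 on log2(CPM + 1) and on the deposited score values, RLE scaling, no filter, no covariates, fewer samples, other dose scales and leaving out single mice. Those for PT 80 ppm against the lower doses were added after seeing the data. The fits were tested on simulated data.

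Named genes were all members, every other tested carboxylesterase, up to 4 passing genes per list by size of change, the 2 closest correlates per member and the 2 nearest tested genes on each side. The lists held other carboxylesterases, lipid and arylacetamide hydrolases, nuclear receptors and partners, CAR and PXR target genes, and markers of hepatocytes, Kupffer cells and leukocytes, endothelial and stellate cells, cholangiocytes, and pancreas and intestine. Members and lists were chosen with earlier results of these data known. Single mice and Gm8798 were named after their values were seen. Gene names came from GENCODE on GRCm39, the assembly of mm39 but another release, for 17660 of 17695 identifiers.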

Additional observations from a re-analysis of the deposited data

Results flagged for a closer look

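In 8 of the 96 tests over single genes or sums and groups, 1 mouse stood far from the other 6 of its group, where chance flags about 1 in 20 groups, or 4.8 of 96. The 8 fall on 5 mice, and none of them is a PT 80 ppm mouse.

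The highest control mouse, 340073 of block 4, held 590.2 CPM of Ces2e, where the next held 386.2, and its Ces2 sum was 816.9 CPM, where the next was 581. Without it, Ces2e at PT 80 ppm differed from control by -1.02 on the log2 scale in place of -1.14, and Ces2b by -0.26 in place of -0.54.

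At FT 2.5 ppm, mouse 339986 of block 4 held 346.3 CPM of Ces3a, where the next held 162.8, and 36.4 CPM of Ces2b, where the next held 15.3. At MT 10 ppm, mouse 340287, the only one of that group with RNA isolated by EPA, held 253.9 CPM of Ces2a (next 178.6) and 36 CPM of Ces2b (next 16). At FT 20 ppm, mouse 340001 of block 3 held the lowest Ces2a level, 88.4 CPM, where the next held 146.7. At PT 20 ppm, mouse 339993 of block 1 held 173.9 CPM of Ces3a, where the next held 132.9. The cause was not tested.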

How the results depend on the processing

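Ces2a and Ces2e at PT 80 ppm passed under RLE scaling, DESeq2, limma, no filter, no covariates and EA mice only, and without any single control or PT 80 ppm mouse, where Ces2a lay at 0.41 to 0.57 and Ces2e at -1.34 to -0.94. In the fit of control and PT mice only, Ces2e passed and Ces2a did not. Ces3b lost its call without covariates (adjusted p = 0.216) and was turned to 0.55 within block 4, where all mice together gave -0.48. In block 4 every dosed group lay above control in Ces3b. Ces2e at FT 10 ppm was turned to -0.06 on the authors' adjusted values, which are not independent of their correction. RLE scaling changed no call of a member, with 150 genes called at FT 10 ppm in place of 164. The cause of the changes below was not tested.

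In the fit of control and 1 pesticide only, the calls among all genes were 0 at FT 2.5 ppm, 6 at FT 10 ppm, 17 at MT 10 ppm, 1 at MT 25 ppm, 138 at MT 100 ppm, 0 at PT 20 ppm and 997 at PT 80 ppm, with 1 member called at MT 100 ppm, 1 at PT 80 ppm and 2 at PT 80 ppm against lower doses. With DESeq2 they were 12 at FT 2.5 ppm, 4 at FT 5 ppm, 328 at FT 10 ppm, 96 at MT 100 ppm, 0 at PT 20 ppm and 1 at PT 40 ppm, with 1 member at FT 10 ppm (Ces2e) and 1 at MT 100 ppm (Ces2a). With EA mice only they were 38 at FT 10 ppm, 26 at MT 10 ppm, 4 at MT 100 ppm and 2 at PT 20 ppm, with 5 members at PT 80 ppm. Without covariates they were 18 at FT 2.5 ppm, 616 at FT 10 ppm and 5 at MT 100 ppm, and Ces2b at PT 80 ppm was called at -0.85 (adjusted p = 0.0268). Without the filter they were 0 at FT 2.5 ppm, 2 at FT 5 ppm, 67 at FT 10 ppm, 1 at FT 20 ppm and 0 at PT 20 ppm. Limma on log2(CPM + 1) gave 5 at MT 100 ppm, and the MT trend over dosed groups only gave 3 genes.

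On the authors' adjusted values, limma called 3820, 4389, 6112 and 3448 genes for the rising FT doses, 3494, 4668, 4377 and 4570 for MT, 4797, 5139 and 5474 for PT, and 4404 for PT 80 ppm against the lower doses, against 0 to 2677 by edgeR on the counts. The members called there were 3 at FT 10 ppm, 5 at PT 80 ppm, 1 each at MT 25 and 50 ppm and 2 in each other comparison with control.

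Leaving out 1 control mouse gave 0 to 4 genes for FT 2.5 ppm, between 0 and 253 for FT 10 ppm, between 5 and 25 for MT 100 ppm, 0 to 1 for MT 10, PT 20 and PT 40 ppm and 1582 to 1887 for PT 80 ppm. Leaving out 1 PT 80 ppm mouse gave 1287 to 2171, and 1604 to 2981 against the lower doses. Members called ranged from 2 to 5 at PT 80 ppm in both cases, from 2 to 6 against the lower doses, and were 0 in all other comparisons with control. No paired analysis was possible because the replicate labels are the numbers of single animals. At 3 counts or below, as in Ces1a and Ces1h, no change could be seen at this depth.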
